A study of Mus musculus with 2 samples.

Results

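The 34 genes described here encode the enzymes, carriers and regulators of fatty acid oxidation in mitochondria and peroxisomes. They were chosen by name as 34 of the 31053 genes of the deposited tables, and all 34 symbols were found there. They comprise the carnitine shuttle (3 genes), acyl-CoA synthetases and uptake (4), acyl-CoA dehydrogenases (5), the trifunctional protein and later mitochondrial steps (5), enzymes for unsaturated fatty acids (2), the electron transfer flavoprotein (3), peroxisomal beta-oxidation (7), other peroxisomal genes (3) and regulators (2).

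Fatty acids are activated to acyl-CoA, carried into mitochondria as carnitine esters and shortened step by step in beta-oxidation, with electrons passed on to the respiratory chain. Peroxisomes carry out a parallel shortening of very long and branched chains, in which the first oxidase makes hydrogen peroxide and catalase removes it. The proximal tubule of the kidney reabsorbs most of the filtered solutes and draws much of its energy from fatty acids, and the nuclear receptor PPARA switches on many of these genes there and in the liver.

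Single cells of dissociated kidney cortex, from mice aged 12 weeks, were sequenced after capture in droplets. There was 1 library from mice that express I-PpoI, an endonuclease that cuts DNA, in podocytes, the epithelial cells of the glomerular filter, and 1 library from wild-type mice. The sources used here do not give the promoter that drives I-PpoI, the strain, or how many mice went into a library. The transgene was not analysed here, and no cluster could be named as podocytes. The measurements below are thus of classes named as other cell types, and single podocytes within them were not excluded. Both libraries held Y-linked transcripts at like levels, with Ddx3y at 55.5 CPM (UMIs scaled to an equal total) in the I-PpoI library and 54.5 CPM in the wild-type library, while Xist had 3 and 1 UMIs.

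After filtering, the I-PpoI library held 3949 cells (median 6647 UMIs) and the wild-type library 3094 cells (median 3486.5 UMIs). Only 6 barcodes were shared. Cells were clustered without the 34 genes and the other genes of their pathways, so that their levels did not shape the clusters, and clusters were named from fixed marker genes, which makes every name below a rebuilt one. Within each library the UMIs of a class were added up and scaled to CPM. Each molecule is counted once from its 3′ end, so a level needs no scaling by gene length. With 1 library per group no difference has a replicate check, no p-value is given, and intervals are exact 95% intervals for counting error alone. A gene was counted as lower or higher past 2-fold where the ratio of CPM was at most 0.5 or at least 2 and it had at least 20 UMIs over both libraries in the class. The share of all genes past the same fold stands beside the first such count in each comparison. Where the UMI sums of the libraries are very unequal, genes near the limit of 20 UMIs can pass 2-fold by counting error alone. The shares of all genes were not matched to the members' UMI counts.

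Promoter sequences are shown for the members whose windows hold a match to the binding pattern of a factor known to act in the proximal tubule or on fatty acid oxidation. RefSeq windows of 250 bases before to 50 after the gene start, on GRCm38.p6, were at hand for 32 of the 34 members. HNF1 factors, which drive many proximal tubule genes, bind the palindrome GTTAATNATTAAC. With up to 2 of its 12 fixed letters differing, on either strand, it occurred in the windows of 427 of 27025 genes (1.58%) and of 2 of the 32 members, Acsm2 and Hao2. Their upstream stretches are printed with the whole matched stretch in capitals, differing letters included.
Acsm2, chr7:119561621-119561693, plus strand: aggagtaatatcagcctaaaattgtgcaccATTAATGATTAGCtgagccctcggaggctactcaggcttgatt
Hao2, chr3:98893412-98893480, minus strand: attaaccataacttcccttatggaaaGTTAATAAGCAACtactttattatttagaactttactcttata
Hao2, chr3:98893231-98893302, minus strand: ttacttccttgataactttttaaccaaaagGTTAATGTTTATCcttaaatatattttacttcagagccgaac

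The direct repeat bound by PPARA with its partner RXR, AGGTCANAGGTCA, was searched in the same way. With up to 2 of 12 fixed letters differing on either strand it occurred in 1190 of 27025 genes (4.4%) and in 4 of the 32 members, Cat, Echs1, Etfa and Slc25a20. The match in Slc25a20 lay after the gene start. The other 3 are printed, again with the whole matched stretch in capitals, and in Etfa the match is on the opposite strand.
Cat, chr2:103485315-103485387, minus strand: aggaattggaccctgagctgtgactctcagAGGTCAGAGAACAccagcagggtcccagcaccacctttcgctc
Echs1, chr7:140116462-140116534, minus strand: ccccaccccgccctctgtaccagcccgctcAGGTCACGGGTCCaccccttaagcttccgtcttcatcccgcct
Etfa, chr9:55512278-55512350, minus strand: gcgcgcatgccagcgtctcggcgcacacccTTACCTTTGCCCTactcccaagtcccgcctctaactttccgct
A related repeat with a fixed spacer, AGGNCAAAGGTCA, which overlaps the first at Etfa and Slc25a20, occurred in 4.84% of genes and 5 of the 32 members at up to 2 differing letters. The shorter HNF4 element CAAAGTCCA, at up to 1 differing letter, occurred in 9.64% of genes and in 1 member, Acadm. These are matches of letters and not measured binding.

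In wild-type kidney the 34 genes ranged from a few nearly restricted to the proximal tubule to a larger group spread over most cell classes. Of the 34 members, 12 in the I-PpoI library and 9 in the wild-type library were at least 4-fold higher in proximal tubule-like cells than in all other kept cells, where 6.61% and 6.38% of all genes were. Acsm3, a medium-chain acyl-CoA synthetase of the mitochondrial matrix, had 7.80 CPM in I-PpoI tubule cells and 0.101 CPM in other I-PpoI cells, and 208 CPM in wild-type tubule cells with 2.27 CPM in other wild-type cells. Its relative Acsm2 had 662 and 1.31 CPM in the I-PpoI library and 2622 and 40.0 CPM in the wild-type library. Slc27a2, which takes up fatty acids and activates very long chains, had 535 and 1.21 CPM in the I-PpoI library, against 1742 and 21.7 CPM in the wild-type library. These 3 genes stood between 65.6-fold and 91.5-fold higher in wild-type tubule cells than elsewhere.

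The other 6 members past 4-fold in the wild-type library were peroxisomal genes and a regulator. The thiolase Acaa1b was 42.4-fold higher in tubule cells than in other cells, the bifunctional enzyme Ehhadh 19.1-fold, the hydroxyacid oxidase Hao2 18.5-fold, and the receptor Ppara 12.9-fold. Catalase (Cat) followed at 8.20-fold and Acox3, the oxidase for branched chains, at 5.30-fold. In the I-PpoI library 8 of these 9 were again past 4-fold, and Acox3 was not, at 24.7 CPM in tubule cells and 32.4 CPM in other cells. The other 4 past 4-fold there were Cpt2 (4.06), Hadh (4.77), Decr1 (4.32) and Pex11a (5.52). The other cells differed between the libraries, with 1573 macrophage-like cells in the I-PpoI and 175 in the wild-type library. The ratios of the libraries thus have unlike comparators, and the part of this in their differences was not tested.

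At the other end stood the trifunctional protein and the coactivator of mitochondrial genes. In wild-type cells the ratio of tubule to other cells was 0.390 (0.351 to 0.433) for Ppargc1a, 0.412 (0.367 to 0.460) for Acadsb, which oxidises short branched acyl-CoA, 0.563 for Hadha and 0.662 for Hadhb. These 4 genes peaked in the thick ascending limb-like class, the salt-reabsorbing end of the loop of Henle, in the wild-type library, while in the I-PpoI library no member was highest there. Ppargc1a had 102 CPM in I-PpoI and 368 CPM in wild-type limb cells, and the next wild-type class was the distal tubule and principal cell-like class at 209 CPM. The highest level lay in proximal tubule-like cells for 25 members in the I-PpoI library, over 11 named classes, and for 18 members in the wild-type library, over 9 classes deep enough to compare.

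**Figure D1:**
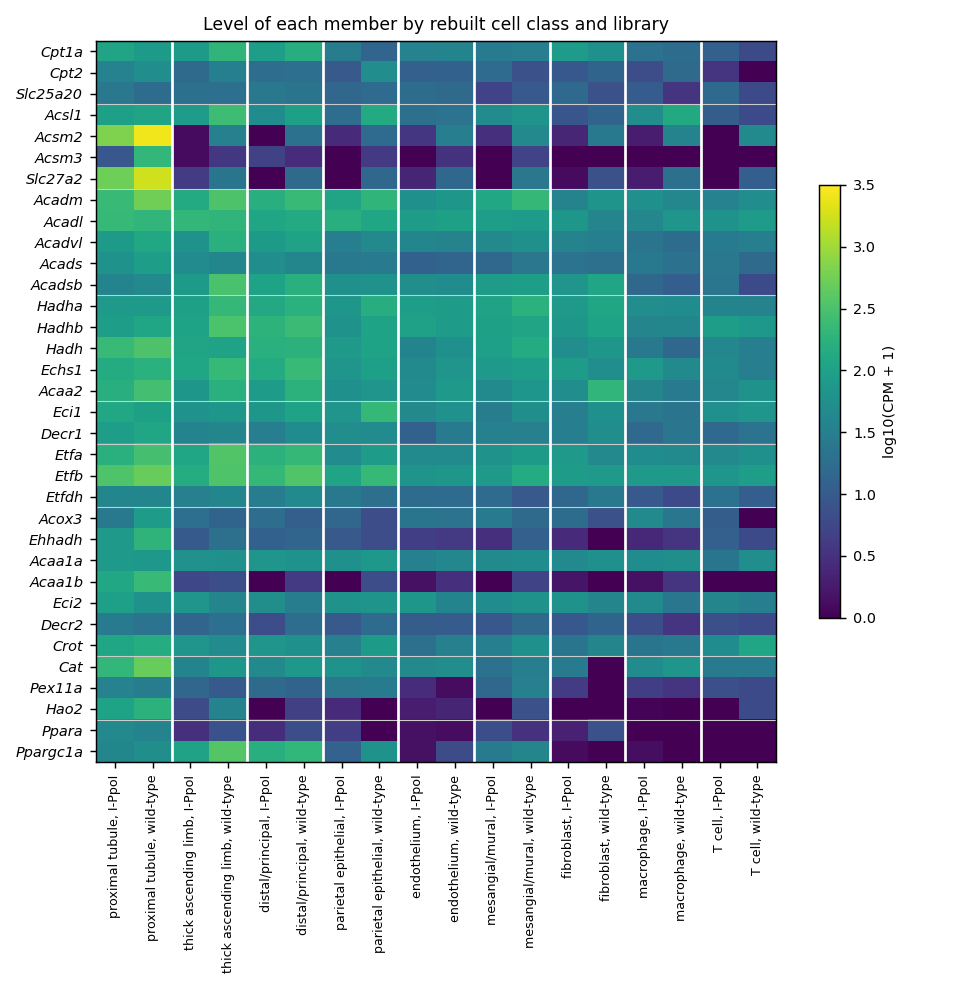
Level of each member, as log10(CPM + 1), in 9 rebuilt cell classes, with the I-PpoI column left of the wild-type column in each pair and grey lines between the functional groups. Acsm2 and Slc27a2 are brightest in the proximal tubule columns, Acsm3, Acaa1b, Hao2 and Ppara are lower there but darker still in most other columns, while Hadha, Hadhb, Etfa and Etfb are at middle levels throughout.

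Free RNA from broken tubule cells can add UMIs to other classes, and its extent was read from 16 proximal tubule markers. In wild-type endothelium-like cells these markers stood at 0.773% to 3.95% of their level in tubule cells, with a median of 1.29%, and in I-PpoI endothelium-like cells the median was 0.227%. In that wild-type class 26 of the 34 members lay above the highest marker. The other 8 were Acsm2, Acsm3, Slc27a2, Ehhadh, Acaa1b, Pex11a, Hao2 and Ppara, at 0.73% to 1.56% of their tubule level, so their UMIs in endothelium-like cells are read as background. In wild-type thick ascending limb-like cells the highest marker stood at 1.37%, and 31 of 34 members lay above it, the exceptions being Acsm2, Acsm3 and Slc27a2.

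Within the wild-type proximal tubule the members differed by segment. Segments S1 and S2 are the first parts of the tubule and S3 is the last. By fixed markers, 2 clusters were S1/S2-like (649 wild-type cells), 1 was S3-like (41 cells) and 3 carried markers of both (652 cells, called mixed). Of the 34 members, 11 were at least 2-fold higher and 6 at least 2-fold lower in wild-type S3-like than in S1/S2-like cells, where 13.2% and 25% of all genes were. The share higher was above that of all genes, and the share lower was below it.

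The highest ratio was that of Acsm3. It had 1068 CPM in S3-like and 14.96 CPM in S1/S2-like cells, a ratio of 71.4 (53.9 to 95.7). Crot, which makes carnitine esters of the chains that peroxisomes have shortened, had 987 CPM in S3-like cells and 65.5 CPM in S1/S2-like cells. Ehhadh reached 567 CPM and 58.2 CPM, and the medium-chain dehydrogenase Acadm 2289 CPM and 284 CPM. Slc27a2, at 5190 CPM in S3-like cells, was the highest member there, with 580 CPM in S1/S2-like cells. These 5 genes had ratios from 8.06 upward. Eci2, Acadl, Cpt2, Cat, Hao2 and Pex11a were higher by 2.03-fold to 3.70-fold, and the last of these had 7 UMIs in S3-like cells and an interval that held 1 (0.790 to 4.39).

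The opposite order held for 6 members. Acaa2, the mitochondrial thiolase of the last step, had 10.1 CPM in S3-like cells, from 2 UMIs, and 437 CPM in S1/S2-like cells, a ratio of 0.0232 (0.003 to 0.084). Acsl1, the long-chain synthetase of the mitochondrial surface, had 10.1 CPM, also from 2 UMIs, and 158 CPM. Ppargc1a, Acaa1a, Acsm2 and Hadhb had ratios from 0.267 to 0.452. Levels in the mixed clusters lay between those of the other segments for Acsm3 (362 CPM), Slc27a2 (2746 CPM) and Acaa2 (149 CPM). Other members were not ordered so. Acaa1b had 325 to 470 CPM across the mixed clusters, above its 85.0 CPM in S1/S2-like and 142 CPM in S3-like cells. Etfb and Echs1 were also higher in each mixed cluster than in both other segments.

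Of the 9 members past 4-fold in wild-type tubule cells, 6 were lower past 2-fold in proximal tubule-like cells of the I-PpoI library. Of the other 25 members only Acadm was. Both measures share the wild-type tubule levels, so this is a description. Of 34 members, all with at least 20 UMIs, 7 were lower past 2-fold and 0 were higher, where 6.73% of 11365 genes were lower and 25.7% were higher. The members' median log2 ratio, I-PpoI over wild-type, was -0.39, beside 0.42 over all genes measured in the class. The median gene was thus 1.34-fold higher in CPM, while 28.9% of genes lay below 1. Relative to that median 12 members were lower past 2-fold, 0 were higher, and 4 lay above it. Together the 34 genes took 0.451% (0.445 to 0.456) of UMIs in I-PpoI and 0.944% (0.937 to 0.9499) in wild-type tubule cells.

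The libraries filled this class with different clusters. Of 438 I-PpoI cells, 375 lay in a cluster (number 4) with 0 wild-type cells, and the 1342 wild-type cells lay in 6 other clusters, which held 63 I-PpoI cells. Cluster 4 was led by Spp1, C3, Spink1, Slc13a1 and Fgg, and by its cells' own marker scores 213 of 375 matched injured proximal tubule best. Of the rest, 52 matched proximal tubule, 26 its S1 and S2 segments, 48 parietal epithelial cell and 11 thin limb best. Smaller numbers matched other types. Havcr1, a marker of tubule injury, had 290 CPM in I-PpoI tubule cells and 0 UMIs in wild-type tubule cells. The proximal tubule's own markers moved too, with 10 of 16 lower past 2-fold, 1 higher and a median log2 ratio of -1.56. The part of this in the members' values was not tested.

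Mitochondrially encoded genes held 10.0% of UMIs in I-PpoI tubule cells and 25.1% in wild-type ones. Without them the members took 0.501% and 1.26% of UMIs. Among cells with 10% to 20% of such UMIs, the members took 0.631% in 117 I-PpoI cells and 1.00% in 402 wild-type cells, and among cells under 10%, 0.342% in 253 I-PpoI cells and 1.05% in 153 wild-type cells. Per cell, the members' share had a median of 0.379% (quartiles 0.243% and 0.608%) in I-PpoI cells and 0.814% (0.597% and 1.11%) in wild-type cells. The lower quartile of wild-type cells thus lay just under the upper quartile of I-PpoI cells, and the distributions overlapped.

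**Figure D2:**
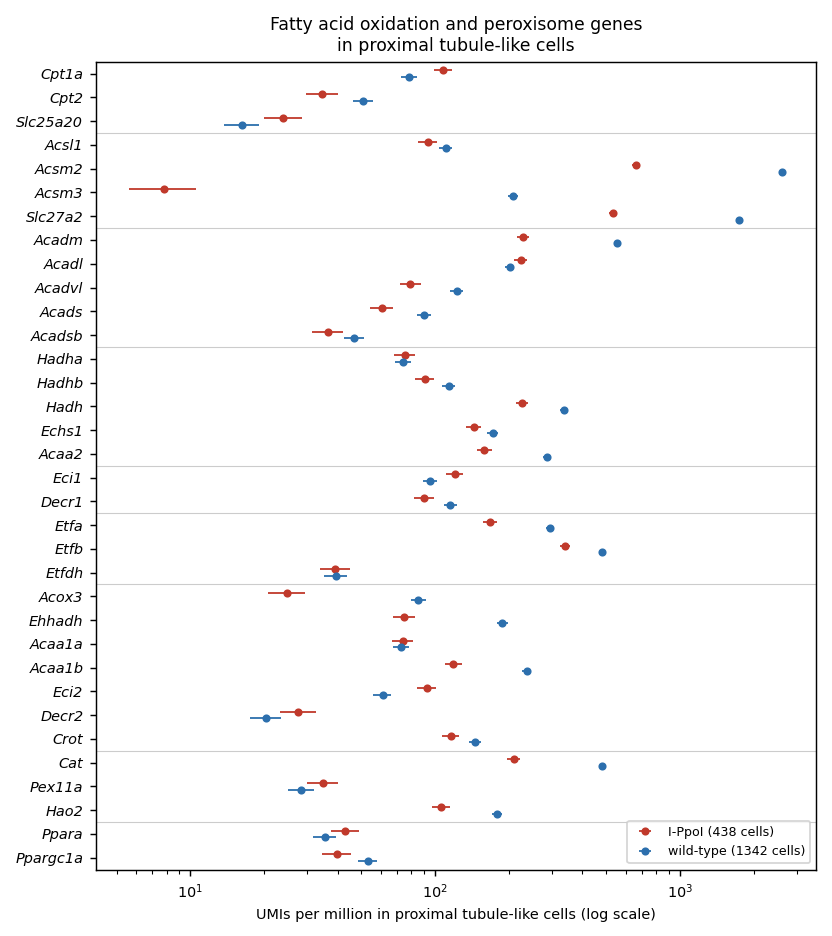
CPM of each member in proximal tubule-like cells on a log axis, with I-PpoI (red) drawn above wild-type (blue) and bars for exact 95% Poisson intervals. Acsm3 stands farthest apart, at 7.80 CPM in I-PpoI cells and 208 CPM in wild-type cells, while Hadha and Etfdh overlap.

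Activation and uptake had the lowest median log2 ratio of the functional groups, -1.85, with 3 of 4 genes lower past 2-fold. Acsm3 had 41 UMIs in I-PpoI tubule cells and 1880 in wild-type ones, or 7.80 and 208 CPM, a ratio of 0.0375 (0.027 to 0.051). Acsm2 had 662 CPM in I-PpoI and 2622 CPM in wild-type cells, a ratio of 0.252 (0.243 to 0.261). Slc27a2 followed at 535 and 1742 CPM, a ratio of 0.307 (0.295 to 0.320). Acsm2 and Slc27a2 alone made up 26.5% of the members' UMIs in I-PpoI and 46.2% in wild-type tubule cells, so they weigh heavily in the summed share. Acsl1, which serves long chains, was at 93.4 and 110 CPM, a ratio of 0.846 (0.758 to 0.944).

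The carnitine shuttle showed the reverse for its first steps. Cpt1a, whose enzyme forms acylcarnitine at the outer membrane and sets the rate of entry, had 108 CPM in I-PpoI and 78.6 CPM in wild-type tubule cells, a ratio of 1.38 (1.23 to 1.54). The inner membrane carrier Slc25a20 had 23.98 and 16.3 CPM, a ratio of 1.47 (1.15 to 1.88). Both ratios lay close to that of the median gene. Cpt2, which frees the acyl-CoA again in the matrix, had 34.6 CPM in I-PpoI and 50.8 CPM in wild-type cells, a ratio of 0.682 (0.571 to 0.812). None of the 3 passed 2-fold.

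Among the acyl-CoA dehydrogenases, which take the first electrons and are named by chain length, only Acadm passed 2-fold. Acadm had 228 CPM in I-PpoI and 552 CPM in wild-type tubule cells, a ratio of 0.413 (0.388 to 0.440). The very-long-chain Acadvl (0.646), short-chain Acads (0.671) and Acadsb (0.780) had intervals below 1. Acadl, the long-chain enzyme, had 224 CPM and 201 CPM, a ratio of 1.11 (1.03 to 1.20).

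The later mitochondrial steps differed less. Hadha, the alpha subunit of the trifunctional protein, had 75.2 CPM in I-PpoI and 74.0 CPM in wild-type cells, and Hadhb, its beta subunit, 90.8 and 114 CPM. Hadh, the dehydrogenase for shorter chains, had 227 and 335 CPM, a ratio of 0.679, and the hydratase Echs1 144 and 172 CPM. Acaa2 was lowest of the 5 at 159 and 286 CPM, a ratio of 0.556 (0.513 to 0.601). For unsaturated chains, the isomerase Eci1 had a ratio of 1.26 (1.14 to 1.40) and the reductase Decr1 of 0.779 (0.698 to 0.870). Of the flavoprotein that collects the electrons, Etfa had 168 CPM in I-PpoI and 295 CPM in wild-type cells, Etfb 341 and 483 CPM, and Etfdh, which hands them to the respiratory chain, 39.0 and 39.3 CPM.

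Peroxisomal beta-oxidation was split. Acox3 had 24.7 CPM in I-PpoI and 85.4 CPM in wild-type tubule cells, a ratio of 0.290 (0.239 to 0.349), and Ehhadh 74.8 and 188 CPM, a ratio of 0.397 (0.355 to 0.443). Acaa1b stood just short of 2-fold, at 119 and 237 CPM and a ratio of 0.501 (0.457 to 0.548). Its near copy Acaa1a had 73.7 and 72.6 CPM. Eci2, the peroxisomal isomerase, had 92.5 CPM in I-PpoI and 61.0 CPM in wild-type cells, and its ratio of 1.52 (1.34 to 1.72) was the highest of all 34. Relative to the median gene of the class Eci2 stood at 1.14. Decr2, the peroxisomal reductase, had a ratio of 1.36 and Crot of 0.794.

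Catalase was lower past 2-fold, at 210 CPM in I-PpoI and 480 CPM in wild-type tubule cells, a ratio of 0.437 (0.409 to 0.467). Hao2 had 106 and 179 CPM, a ratio of 0.593 (0.537 to 0.653), and Pex11a, which acts in peroxisome division, 34.8 and 28.3 CPM. Neither regulator passed 2-fold. Ppara had 42.8 CPM in I-PpoI and 35.4 CPM in wild-type cells, a ratio of 1.21 (1.02 to 1.44), and Ppargc1a 39.6 and 53.1 CPM, a ratio of 0.745 (0.630 to 0.879).

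Some of these values carry a limit of identity. Acaa1a and Acaa1b share 300 bases at their 3′ ends at 95.7% identity, Eci2 and Eci3 390 bases at 95.1%, Hadhb and its copy Gm13910 246 bases at 98.8%, and the last 400 bases of Etfb also belong to Gm45233. Decr2 also shares 107 bases of its end with Ccdc6 at 96.3%. Reads from these ends may have been split or dropped. In addition 17 members overlap a gene annotated on the other strand, and the use of strand in counting is not given in the sources used here.

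Pooled over segments, tubule cells of the libraries outside cluster 4 were closer, but the mix of segments differed. The S3-like cluster gave 12 of the 63 I-PpoI cells (104108 UMIs) and 41 of the 1342 wild-type cells (197503 UMIs). Over 63 I-PpoI and 1342 wild-type cells, 2 of 34 members were lower past 2-fold and 1 was higher. Of 10056 genes, 12.0% were lower and 10.9% higher. The I-PpoI cells held 317904 UMIs and the wild-type cells 9037868, so genes near the UMI limit can pass 2-fold by counting error alone. The shares of all genes include such genes and thus do not show whether members differed less often than like genes. The members' median log2 ratio was 0.03, beside 0.24 over all genes. Their share of UMIs was 0.796% (0.765 to 0.827) in I-PpoI cells, against 0.944% in wild-type ones. Slc27a2 had 1689 CPM in I-PpoI and 1742 CPM in wild-type cells, a ratio of 0.970 (0.888 to 1.06), and Acadm 437 and 552 CPM. By segment, Slc27a2 had a ratio of 1.05 (0.834 to 1.30) in S1/S2-like cells and 0.407 (0.350 to 0.471) in S3-like cells. Acadm had 0.881 (0.611 to 1.23) and 0.260 (0.196 to 0.340), so the pooled values hide a difference between segments. Acsm2 was still at 0.537 (0.488 to 0.590), Acsm3 at 0.469 (0.318 to 0.668), Ehhadh at 0.501 (0.337 to 0.718) and Acox3, from 12 UMIs, at 0.442 (0.227 to 0.776). Hao2 went the other way, at 362 CPM in I-PpoI and 179 CPM in wild-type cells, a ratio of 2.02 (1.66 to 2.44). Of the 16 tubule markers 3 were lower and 2 higher past 2-fold here.

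**Figure D3:**
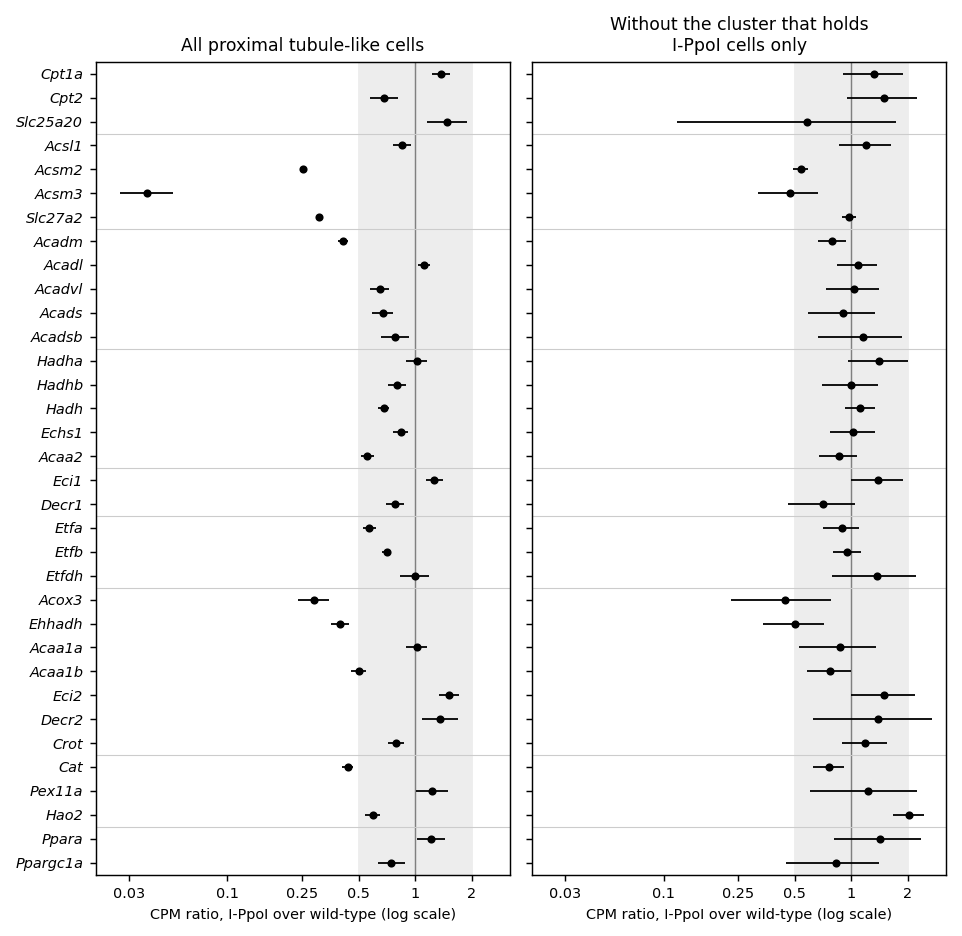
Ratio of CPM, I-PpoI over wild-type, for each member on a log axis, over all proximal tubule-like cells (left) and over those outside the cluster that holds I-PpoI cells only (right), with exact 95% intervals and the range from 0.5 to 2 in grey. On the left 7 members lie below 0.5 and none above 2, and on the right Acsm3 and Acox3 lie below 0.5 and Hao2 above 2.

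Only cluster 14, S1/S2-like, held at least 20 cells of each library, 30 I-PpoI and 464 wild-type cells. Of 33 members measured there, 8 were lower past 2-fold and 1 was higher, against 36.9% and 10.5% of all genes, with a median log2 ratio of 0.01 for members and for all genes. Genes near the UMI limit can pass 2-fold here by counting error alone, so the shares of all genes are no like background for the members' counts. The I-PpoI cells held 38550 UMIs in all, so most members rested on under 10 UMIs. The 0.5 counts added for medians weigh more on such small sums and raise the log2 ratios. Cat, at a ratio of 0.969, thus had a log2 ratio of 0.0113. The median also moved with the number of counts added, so it does not show that the members were unchanged. Cluster by cluster, the members' share of UMIs in wild-type cells ran from 0.626% in cluster 14 and 0.714% in cluster 11, both S1/S2-like, over 0.925%, 1.09% and 1.30% in the mixed clusters to 1.50% in the S3-like cluster. Cluster 4 lay below all of them at 0.428% (0.423 to 0.434).

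**Figure D4:**
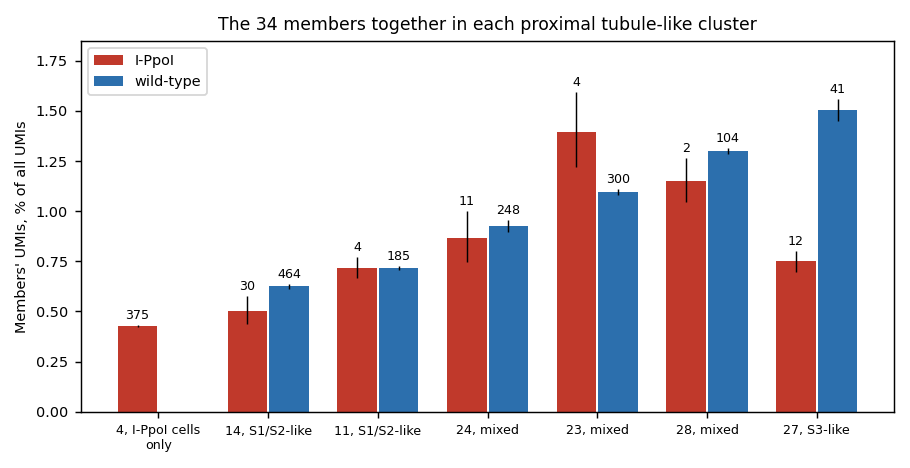
Share of all UMIs taken by the 34 members in each proximal tubule-like cluster, I-PpoI (red) left of wild-type (blue), with exact 95% binomial intervals and the number of cells above each bar. Cluster 4, with I-PpoI cells only, stands at 0.428%, and the S3-like cluster 27 at 0.749% in 12 I-PpoI cells and 1.50% in 41 wild-type cells.

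The segments outside cluster 4 were also compared one by one, with no test between them. The limit given above for shares of all genes holds for the S1/S2-like cells too, where the I-PpoI sum was small. In S1/S2-like cells (34 I-PpoI and 649 wild-type cells) the members' median log2 ratio was 0.18, beside 0.17 over all genes, with 1 of 34 lower and 2 higher past 2-fold, where 22.7% and 10% of 8969 genes were. The lower one was Acsm3, with 0 UMIs in I-PpoI and 66 UMIs in wild-type cells and an interval of the ratio up to 1.81, so no difference was detectable at this depth, and the higher ones were Eci1 at 2.54 (1.57 to 3.93) and Eci2 at 2.72 (1.37 to 4.91). In the S3-like cluster (12 and 41 cells) 23 members could be measured, of which 7 were lower past 2-fold and 4 higher, where 12.5% and 18.8% of 1983 genes were, and the median log2 ratio was -0.32, beside 0.22 over all genes. The same 41 wild-type cells gave the high S3-like levels described above, and of these 7 Acsm3, Ehhadh and Decr1 passed the limit of 20 UMIs only through them. Acsm3 had 67.2 CPM in I-PpoI and 1068 CPM in wild-type S3-like cells, a ratio of 0.0629 (0.025 to 0.132). Ehhadh had 57.6 and 567 CPM, Crot 269 and 987 CPM, and Acadm 596 and 2289 CPM. Acsm2, Slc27a2 and Decr1 were the other 3, at ratios of 0.203, 0.407 and 0.495, the last from 6 and 23 UMIs with an interval that held 1 (0.165 to 1.25).

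Higher in I-PpoI S3-like cells were Hao2, at 807 CPM against 228 CPM in wild-type ones, a ratio of 3.54 (2.44 to 5.21), and Cpt1a, Hadha and Hadhb, at ratios of 3.79 (1.53 to 10.2), 3.604 (1.59 to 8.68) and 2.66 (1.10 to 6.68). Cpt1a rested on 16 I-PpoI and 8 wild-type UMIs, Hadha on 19 and 10, and Hadhb on 14 and 10. These 4 of 23 measured members were a share near the 18.8% of all genes that were higher. Of the 115 Hao2 UMIs in I-PpoI tubule cells outside cluster 4, 84 were from these 12 cells, while in S1/S2-like cells Hao2 had 78.6 CPM in I-PpoI and 111 CPM in wild-type cells. Spp1, the injury-associated gene that led cluster 4, took 2.19% of UMIs in the 12 I-PpoI cells and 0 UMIs in the 41 wild-type cells of the S3-like cluster. The part of injured cells in these values was not tested.

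**Figure D5:**
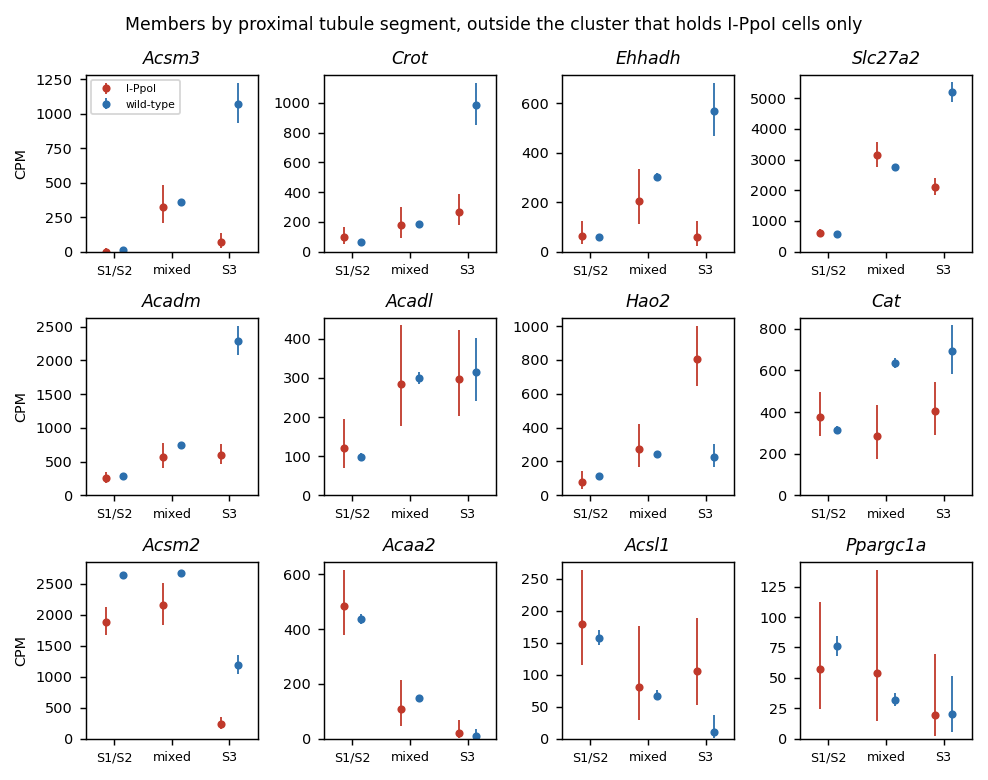
CPM of 12 members, picked after their values were seen, in S1/S2-like, mixed and S3-like clusters, for I-PpoI (red) left of wild-type (blue), with exact 95% Poisson intervals and axes that start at 0. Acsm3, Crot, Ehhadh and Acadm are high in wild-type S3-like cells and lower in I-PpoI ones, while Hao2 is higher in I-PpoI S3-like cells.

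Other genes of these pathways were counted in proximal tubule-like cells in the same way, where 6.73% of all genes were lower and 25.7% higher past 2-fold. The lists were drawn up by function, with earlier results of these data known. Of 15 peroxisome biogenesis genes, the PEX proteins that import enzymes, 0 were lower and 0 higher past 2-fold, with a median log2 ratio of -0.04. Of 31 other peroxisomal enzymes and transporters 9 were lower and 3 higher, with a median of -0.61. Agps, of ether lipid synthesis, had 26.6 CPM in I-PpoI and 136 CPM in wild-type cells, the enoyl-CoA reductase Pecr 122 and 533 CPM, and Amacr, which converts branched acyl-CoA, 52.3 and 209 CPM. Hacl1, of branched-chain breakdown, was higher at 50.4 and 18.6 CPM. The amine oxidase Paox was also higher, at 14.1 and 4.87 CPM. Among the import genes Pex6 was at 14.1 CPM in I-PpoI and 23.3 CPM in wild-type cells, and Pex14 at 19.98 and 12.5 CPM.

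Other mitochondrial fatty acid genes, ketone body genes included, were lower in 10 and higher in 2 of 20, with a median log2 ratio of -1.01. Oxct1, which activates ketone bodies, had 170 CPM in I-PpoI and 753 CPM in wild-type cells, the thiolase Acat1 109 and 447 CPM, and the acetate-activating Acss1 27.8 and 109 CPM. Of 19 genes of uptake, binding and activation 7 were lower and 6 higher. Lipoprotein lipase (Lpl) had 28.4 CPM in I-PpoI and 609 CPM in wild-type cells, and the fatty acid receptor Cd36 48.0 and 229 CPM. Higher were the liver-type binding protein Fabp1 at 23.4 and 1.44 CPM, Acsl4 at 88.7 and 29.3 CPM, and the acyl-CoA binding protein Dbi at 5286 and 2365 CPM.

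Of 13 PPAR target genes beyond the members, 2 were lower and 7 higher past 2-fold, where 6.73% and 25.7% of all genes were. Their median log2 ratio was 1.75, beside 0.42 over all genes. Pdk4, which closes off pyruvate oxidation, had 107 CPM in I-PpoI and 3.21 CPM in wild-type cells, a ratio of 33.5 (23.04 to 50.4), and the uncoupling protein gene Ucp2 56.9 and 7.52 CPM. The fatty acid hydroxylases Cyp4a12a (7.99 and 52.3 CPM) and Cyp4a10 (48.0 and 126 CPM) were lower. Of 20 regulators of oxidative metabolism 3 were lower and 0 higher, namely Ppard (ratio 0.315), the mitochondrial deacetylase Sirt3 (0.425) and Esrra (0.446).

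Of 17 genes of fatty acid synthesis and storage 2 were lower, Me1 and Insig1, and 4 higher, a share near the 25.7% of all genes that were higher. The lipid droplet coat gene Plin2 had 214 CPM in I-PpoI and 50.8 CPM in wild-type cells, a ratio of 4.21 (3.78 to 4.71), the desaturase Scd2 16.2 and 0.664 CPM, and Acly 96.9 and 39.8 CPM. Of 15 glycolysis genes 0 were lower and 6 higher, with a median log2 ratio of 0.39, close to that of all genes. Hexokinase Hk2 had 102 UMIs in I-PpoI and 0 UMIs in wild-type cells, Pfkp 50.6 and 2.77 CPM, and Pkm 30.1 and 2.88 CPM. Of 14 citrate cycle genes 0 were lower and 0 higher, with a median of -0.44. The 9 listed genes that male mouse tubules are known to express more than female ones were all lower past 2-fold, with a median of -3.24, and Kap had 1553 CPM in I-PpoI and 27371 CPM in wild-type cells. Outside cluster 4, 6 of the 9 were lower, with a median of -1.11.

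Thick ascending limb-like cells had more members past 2-fold than the proximal tubule. Of 33 measured members 17 were lower and 0 higher, where 6.17% and 31.2% of 10653 genes were, and the median log2 ratio was -1.03, beside 0.53 over all genes. The 8 genes with their wild-type peak in this segment were all among the 17, and the peak and the ratio share the same wild-type values. Ppargc1a had 102 CPM in I-PpoI and 368 CPM in wild-type limb cells, a ratio of 0.278 (0.244 to 0.315). Acadsb had 78.9 and 311 CPM, Hadhb 108 and 326 CPM, Etfa 118 and 359 CPM, Acsl1 85.7 and 254 CPM, and Cpt1a 79.1 and 196 CPM, a ratio of 0.404 (0.345 to 0.472). In tubule cells Cpt1a stood at 1.38, and the difference between the classes was not tested.

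Eci2 (1.73), Crot (1.38), Acox3 (1.45) and Acadl (1.06) lay above 1 in the limb, and of the 7 peroxisomal beta-oxidation genes only Ehhadh was lower past 2-fold, with a median log2 ratio of 0.04. Of the 17, Acsm2 and Slc27a2 were at the level of tubule RNA in wild-type limb cells, as given above. The libraries again filled the class with different clusters, since 196 of 216 I-PpoI cells lay in cluster 0, led by Lcn2 and Wfdc2, and 245 of 246 wild-type cells in cluster 26. Mitochondrially encoded genes held 9.11% of UMIs in I-PpoI and 32.4% in wild-type limb cells, and without them the members took 0.222% and 0.616%. Citrate cycle genes were lower past 2-fold in 10 of 14, and Spp1 took 2.88% of UMIs in I-PpoI and 0.230% in wild-type limb cells. The part of these in the members' values was not tested. Within cluster 26 (20 I-PpoI and 245 wild-type cells) 8 of 30 members were lower and 2 higher, against 34.9% and 10.3% of all genes. The I-PpoI cells held 68614 UMIs there and the wild-type cells 1840556, so these shares of all genes are no like background for the members. Of the 8, 5 had 0 UMIs in I-PpoI cells, with upper bounds of the ratio from 1.57 to 3.17, and Eci1 was at 0.419 (0.0502 to 1.55). All of these intervals held 1, so no difference was detectable for them at this depth. Acadsb and Hadhb were lower at 0.375 (0.161 to 0.743) and 0.491 (0.244 to 0.885). Ppargc1a at 0.514 (0.272 to 0.886), Cpt1a at 0.520 (0.208 to 1.08), Etfa at 0.730, Acsl1 at 1.15 (0.694 to 1.79) and Hadha at 1.29 did not pass 2-fold there.

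Other classes differed less. In distal tubule and principal cell-like cells (41 I-PpoI and 170 wild-type cells) 4 of 30 members were lower and 0 higher, where 9.41% and 5.13% of all genes were. Acaa2 had 84.2 CPM in I-PpoI and 179 CPM in wild-type cells, Decr2 had 3 and 28 UMIs, and Acsm2 and Slc27a2 had 0 UMIs in I-PpoI cells, which allows up to 5.61 CPM. The endothelium-like class was filled unequally, with 210 of 354 I-PpoI cells in a cluster of 16 wild-type cells, and 416 and 151 of 658 wild-type cells in clusters of 69 and 1 I-PpoI cells. In it 3 of 27 were lower and 0 higher, where 6.48% and 5.98% of all genes were. Acsm2 and Slc27a2 were again at background there, and Decr1 had 11.4 CPM in I-PpoI and 25.8 CPM in wild-type cells. Eci2 had 70.5 and 36.8 CPM in endothelium-like cells, a ratio of 1.91 (1.49 to 2.45).

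Macrophage-like cells numbered 1573 in the I-PpoI and 175 in the wild-type library. Of the I-PpoI cells 526, 210 and 193 lay in clusters with 6, 6 and 9 wild-type cells, and the remaining cluster held 644 I-PpoI and 154 wild-type cells. In this class 4 of 29 members were lower and 4 higher, where 8.23% and 13.6% of all genes were. The share of members higher was thus near that of all genes. Acsl1, which is induced in inflammatory macrophages, had 50.6 CPM in I-PpoI and 131 CPM in wild-type cells, a ratio of 0.387 (0.314 to 0.480), and Cpt2 5.63 and 15.1 CPM. Acsm2 and Slc27a2, read as background here too, were the other 2. Higher were Acox3 at 46.1 CPM in I-PpoI and 22.6 CPM in wild-type cells, Eci2 at 45.6 and 22.6 CPM, and Slc25a20 and Decr2, each with 2 UMIs in wild-type cells and ratios of 3.71 (1.01 to 30.99) and 2.32 (0.623 to 19.5). Eci2 was thus above 1 in tubule, limb, distal, endothelium-like and macrophage-like cells, at ratios of 1.52, 1.73, 1.84, 1.91 and 2.01. The median of all genes also lay above 1 in tubule and limb cells.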

How the data were processed

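The deposited files hold whole-number UMI counts per gene and barcode, made by the authors with Cell Ranger on mm10, version 3.1 per the labels' protocols and 6.0.2 per the file headers. The labels name 3′ kit version 3.1 and Seurat version 3, and the values are not normalized. There were 5268 barcodes (37811289 UMIs) for I-PpoI and 5536 (27793633 UMIs) for wild-type.

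Cells needed 200 genes and at most 50% mitochondrial UMIs. Scrublet marked 0.733% in I-PpoI but, for wild-type, 0.155%, which is under 0.5%, so the top 4% of doublet scores was left out. Both libraries were clustered together with scanpy 1.11.5 (2000 variable genes without members and pathway genes, 30 components, 15 neighbours, Leiden resolution 1, 30 clusters, 5 unnamed). A marker counted at 25 CPM and 4-fold over the median cluster, and 3 were needed for a name. Distal and principal cell markers tied in a cluster, which kept both names. These thresholds were set with the data known. Medians used 0.5 added counts. Ratios have exact conditional binomial intervals, shares Clopper-Pearson and levels Poisson ones. The floor for 0 was 3 UMIs. The step from summed counts to ratios, intervals and calls past 2-fold was tested on simulated Poisson sums of the proximal tubule-like class. Such sums carry counting error alone.

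The members and lists were chosen with earlier results of these data known. All members are named, and genes of other lists come from the 3 each way whose interval lay farthest from 1; markers are named as such. The authors' counts were used as deposited, and RNA from other cells was not removed.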

Additional observations from a re-analysis of the deposited data

Results flagged for a closer look

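The ratio of Acox3 lay on opposite sides of 1 in 2 cell classes. It was 2.03 times as high in I-PpoI as in wild-type macrophage-like cells (1.28 to 3.46, from 646 and 18 UMIs), while its ratio in proximal tubule-like cells was 0.290 (0.239 to 0.349, from 130 and 772 UMIs). The libraries fill both classes with different clusters: 375 of 438 I-PpoI tubule cells lie in a cluster with 0 wild-type cells, and among macrophage-like cells 1 cluster has 644 of the 1573 from the I-PpoI library but 154 of the 175 from the wild-type library. Each class has 1 library per group, and the difference between the classes was not tested.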

How the results depend on the processing

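No paired analysis was possible because each group has 1 library. Across 15 alternative settings, 1 of them (without the cluster that holds I-PpoI cells only) added after seeing the data, 7 members lower and 0 higher became 11 lower with CPM taken without mitochondrially encoded UMIs, 12 lower with ratios scaled to the median of all genes, and 2 lower and 1 higher without that cluster. The count higher was also 1 with cells thinned to 1000 UMIs and with cluster 14 alone. The median log2 ratio of -0.39 became -0.81 with the scaling, 0.0113 in cluster 14 alone and 0.0305 without the I-PpoI cluster. In cluster 14 alone the log2 ratios of Slc27a2, Acox3 and Cat, with 0.5 counts added, changed sign, to 0.80, 0.21 and 0.0113. Without added counts the ratio there was 1.69 (0.992 to 2.71) for Slc27a2. It stayed below 1 for Acox3, at 0.928 (0.111 to 3.46, from 2 I-PpoI UMIs), and for Cat, at 0.969 (0.497 to 1.71). The median in shared clusters, 0.01, became 0.98 with 3 counts added, -0.47 with classes by each cell's marker score and -0.43 with no doublets left out, and with at least 500 genes or a mitochondrial limit of 25% no cluster held 20 cells of each library. The members' share of tubule UMIs, 0.451% for I-PpoI and 0.944% for wild-type, became 0.501% and 1.26% without mitochondrially encoded UMIs, 0.475% in I-PpoI cells with marker scores, and in wild-type cells 0.952% with at least 500 genes and 1.04% with the limit of 25%. Causes were not tested. The counts of members past 4-fold in tubule cells stayed within 11 to 12 in I-PpoI and 9 to 13 in wild-type cells. The 63 I-PpoI tubule cells outside cluster 4 limit what can be seen within a segment.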
